A study of Homo sapiens with 12 samples.

Results

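The human mitochondrial genome is a circle that encodes 2 ribosomal RNAs, 22 transfer RNAs and 13 messenger RNAs. All rows of the deposited count table named for these 37 genes were taken, and 24 of the 44659 rows of the table matched: RNR1, RNR2 and the 22 tRNA genes. The 13 mRNA genes, ND1 to CYTB, were not analysed here. RNA had been measured in A375, a human skin melanoma line, in 4 groups of 3 libraries. The controls (CC) had DMSO, the drug solvent, in their medium for 72 h. The treated group (TC) was exposed for the same 72 h to the BRAF inhibitor vemurafenib and the MEK inhibitor cobimetinib at 500 nM each (MAPKi). Persister cells (PC) had the same exposure and were then kept 2 days without them, and recovered cells (RC) 9 days without them. CC libraries were taken at the end of the 72 h, so time in culture and passaging cannot be told apart from recovery in the comparisons of PC and RC with CC. Per the labels, RNA was taken from the cytoplasmic fraction of a Triton X-100 lysate. The RNA extraction methods of the study also describe a centrifuged Triton X-100 lysate. Its RNA-seq methods speak of total RNA, and which applies was not tested. All libraries were depleted of ribosomal RNA. Whether the depletion probes covered the mitochondrial rRNAs is not given in the sources used here.

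Mitochondrial DNA is transcribed from both strands into long precursor RNAs. The tRNAs lie between the other genes like punctuation, and their excision by RNase P and ELAC2 releases the rRNAs and mRNAs. RNR1 encodes the 12S rRNA of the small subunit and RNR2 the 16S rRNA of the large subunit of the mitochondrial ribosome, which translates only the mitochondrial mRNAs. Every protein needed for this (RNA polymerase, processing enzymes, ribosomal proteins) is encoded in the nucleus and imported.

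Total counts per library ran from 37773389 to 55567097, and the 24 rows together held 1.47 to 3.73% of them. A count of 3 at the lowest depth equals 0.0794 CPM (the count relative to normalized library size), a floor that covers counting error only. The MAPK output genes DUSP6, SPRY4 and ETV4 summed to 590.5 to 1248 CPM in CC, 7.16 to 9.89 CPM in TC, 7.38 to 8.53 CPM in PC and 618 to 680.0 CPM in RC. All 8 melanoma markers were detected above the floor in at least 1 library, at a summed 1815 to 1996 CPM in CC and 6970 to 10501 CPM in TC. They did not all rise: 5 were called higher and 1 lower in TC, against 33.2% and 34.7% of all genes. DCT, the highest of them in TC, had 14914 to 20816 counts in CC and 243833 to 303563 in TC. S100B had 10257 to 13499 counts in CC and 5568 to 6863 in TC. Of the keratinocyte, leukocyte and endothelial markers, KRT14 and PTPRC passed the floor, at up to 114 and 39 counts, and KRT1 and CDH5 had 0 counts in every library. The fibroblast markers summed to 28.04 to 37.4 CPM in CC and 7.31 to 8.82 CPM in TC, and their part in the results was not tested. CC replicate 3 stood apart from the other 2 CC libraries, with 34008 SPRY4 counts against 13849 and 11965. The main fold changes against CC are therefore also given without it.

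The sequences of the tRNA rows on which the results turn are given here with the anticodon, the triplet that reads the codon, in capitals. The first 4 rows held the most counts, TRND rose beyond 1.5-fold in PC, and TRNG fell in PC. Sequences are from GRCh38, 5′ to 3′ on the strand of the tRNA, in DNA letters.
TRNS1 (serine), chrM:7446-7514, minus strand: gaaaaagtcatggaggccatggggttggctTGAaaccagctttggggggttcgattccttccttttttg
TRNE (glutamate), chrM:14674-14742, minus strand: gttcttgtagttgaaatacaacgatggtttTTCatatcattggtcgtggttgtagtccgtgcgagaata
TRNP (proline), chrM:15956-16023, minus strand: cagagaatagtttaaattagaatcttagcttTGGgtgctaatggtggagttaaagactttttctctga
TRNY (tyrosine), chrM:5826-5891, minus strand: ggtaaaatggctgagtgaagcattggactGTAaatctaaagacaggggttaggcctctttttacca
TRND (aspartate), chrM:7518-7585, plus strand: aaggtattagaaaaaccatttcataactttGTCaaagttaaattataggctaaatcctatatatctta
TRNG (glycine), chrM:9991-10058, plus strand: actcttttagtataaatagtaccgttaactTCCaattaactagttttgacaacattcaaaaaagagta

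Both rRNAs rose under MAPKi, and RNR1 rose more than RNR2 by the size of its fold change. Normalized CPM of RNR1 were 1128, 1187 and 898 in CC, and 2527, 2363 and 2471 in TC. The groups did not overlap. RNR1 was 2.29-fold higher in TC, a log2 fold change of 1.20 ± 0.09 (SE, n = 3 per group; edgeR's quasi-likelihood test, adjusted p = 2.83e-07), and 1.09 ± 0.07 without CC replicate 3. In these bulk libraries, a change in the share of cells of one state and a change of RNA per cell cannot be told apart. RNR2 measured 20357, 19202 and 12317 CPM in CC, and 29844, 26207 and 25819 CPM in TC. Again every TC library lay above every CC library, with the third CC library the lowest of CC. The log2 fold change of RNR2 was 0.66 ± 0.16 (edgeR adjusted p = 0.00239), and without the third CC library 0.47 ± 0.10 (edgeR adjusted p = 0.00194). Of all 15916 genes tested, 33.2% were called higher in TC than CC, and 16.1% were called higher beyond 1.5-fold. Of the 2 rRNAs, both were called higher and RNR1 alone beyond 1.5-fold.

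In PC the 2 rRNAs differed. RNR1 measured 2683, 2776 and 2590 CPM, above every TC library, and was 2.51-fold higher than in CC (log2 fold change 1.33 ± 0.09, edgeR adjusted p = 1.07e-07, and 1.22 ± 0.07 without CC replicate 3). RNR2 measured 22885, 22978 and 18018 CPM, which overlapped CC. Its log2 fold change against CC was 0.30 ± 0.15 (edgeR adjusted p = 0.102), and it was called higher without the first CC library (0.43) or the third PC library (0.41). DESeq2 (0.33) and the edgeR fit with a replicate block (0.31) also called it higher. Without CC replicate 3 it was 0.12 ± 0.10 (edgeR adjusted p = 0.337). Against TC, the log2 fold change of RNR1 was 0.13 ± 0.09 and that of RNR2 was -0.36 ± 0.15 (edgeR adjusted p = 0.352 and 0.116). Neither rRNA was called between PC and TC. edgeR had 1 lower at an unadjusted p under 0.05, and DESeq2 called 0 at an adjusted p under 0.05. Without the third CC library, RNR2 was called lower in PC than TC, at -0.35 ± 0.09 (edgeR adjusted p = 0.014).

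In RC both rRNAs were at or below the CC level. RNR1 measured 926, 796 and 835 CPM, of which the first lay within the CC range. RNR2 measured 11859, 11590 and 12083 CPM, all under the lowest CC library at 12317 CPM. Against CC the log2 fold change was -0.33 ± 0.09 for RNR1 and -0.55 ± 0.15 for RNR2 (edgeR adjusted p = 0.0158 and 0.016). Neither call held in every subset of libraries. That of RNR1 was lost without the first CC (-0.29), the second CC (-0.25), the second RC (-0.28) or the third RC library (-0.31), and that of RNR2 without the first CC (-0.41), the second CC (-0.46) or the second RC library (-0.53). Without the third CC library both calls held, at -0.44 ± 0.07 and -0.74 ± 0.10 (edgeR adjusted p = 0.00069 and 0.000284). Of all genes tested, 18.2% were called higher and 19.1% lower in RC than CC. From PC to RC, RNR1 fell by 1.65 ± 0.10 and RNR2 fell by 0.85 ± 0.16 on the log2 scale (edgeR adjusted p = 1.64e-08 and 0.000374), against 34.2% of all genes called lower and 35.7% higher.

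**Figure D1:**
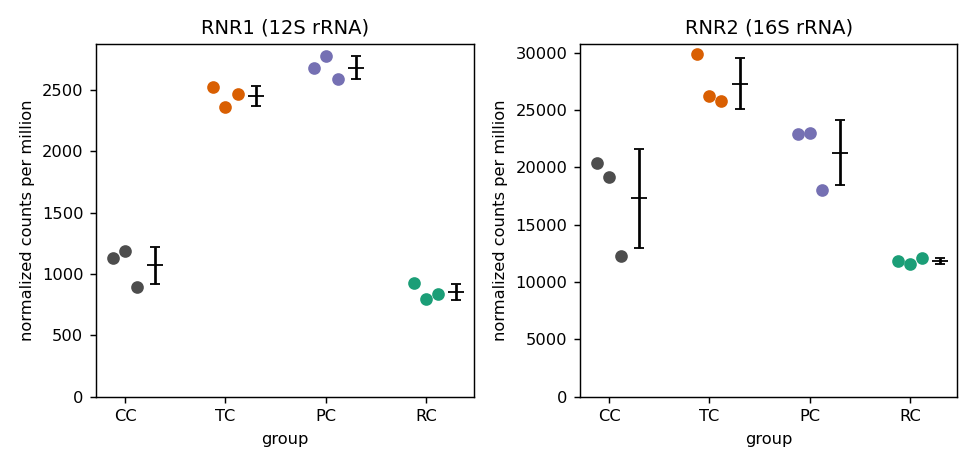
Normalized CPM of RNR1 and RNR2 in each of the 12 libraries, by group (CC, TC, PC, RC), on a linear axis from 0. Points are libraries, and the bar beside them is the mean ± SD of 3. RNR1 lay between 2363 and 2776 in all TC and PC libraries and at or under 1187 in all CC and RC libraries, while RNR2 of PC overlapped CC.

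Per kilobase of its length, RNR2 (1559 bases) was the higher of the 2 rRNAs in each group, at 17505 ± 1424 CPM per kb in TC against 2572 ± 87.4 CPM per kb for RNR1 (954 bases). The ratio of RNR1 to RNR2 counts was 0.0554, 0.0618 and 0.0729 for CC, 0.0847, 0.0902 and 0.0957 for TC, 0.117, 0.121 and 0.144 for PC, and 0.0781, 0.0686 and 0.0691 for RC. Every PC library was above every TC library, every TC library was above every CC and RC library, and CC and RC overlapped. Over the 4 groups an exact permutation test of this ratio gave p = 0.000195 (Benjamini-Hochberg adjusted p = 0.000649 over 6 shares and ratios, 369600 assignments of the libraries, one-way F statistic). Both rRNAs together took 1.83 ± 0.45% of the counts of CC, 2.94 ± 0.28% of TC, 2.40 ± 0.31% of PC and 1.29 ± 0.03% of RC (SD, n = 3; exact permutation p = 0.00104, adjusted 0.00156). The 62 rows of cytosolic rRNA summed to at most 0.768 CPM, with CC at 0 to 0.134 CPM and PC at 0.453 to 0.768 CPM, and the part of rRNA depletion in the mitochondrial rRNA values was not tested.

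The tRNA rows fell into rows with many counts and rows with almost none. All tRNAs are 59 to 75 bases long, while the reads were pairs of 150 bases, so reads of a tRNA alone and reads of a longer RNA across it cannot be told apart. A row was said to have an open side where the nearest other row of the table lay at least 200 bases away. The 6 rows with no open side (TRNA, TRNC, TRNN, TRNQ, TRNV and TRNS2) had a median count of 0 to 5 over the 12 libraries. Of the 16 rows with an open side, TRNF had a median count of 2, and its open side is the control region that holds the promoters. The other 15 had median counts from 238 (TRNL2) to 96806 (TRNS1). Among them TRNP, at 8371, has its open side on the same control region as TRNF.

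The 4 rows with the highest counts were TRNS1, TRNE, TRNP and TRNY, which took 85.0 to 90.9% of all tRNA counts in each library. TRNS1 alone took 60.2 to 72.3%. All 4 are on the minus strand, the strand that carries few genes, and each has an open side. TRNS1 abuts COX1, which lies on the plus strand at chrM:5904-7445, and TRNE lies between ND6 and CYTB. The strand setting of the counting is not given in the sources used here, so RNA of a gene on the opposite strand and RNA of the tRNA itself cannot be told apart in these rows.

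**Figure D2:**
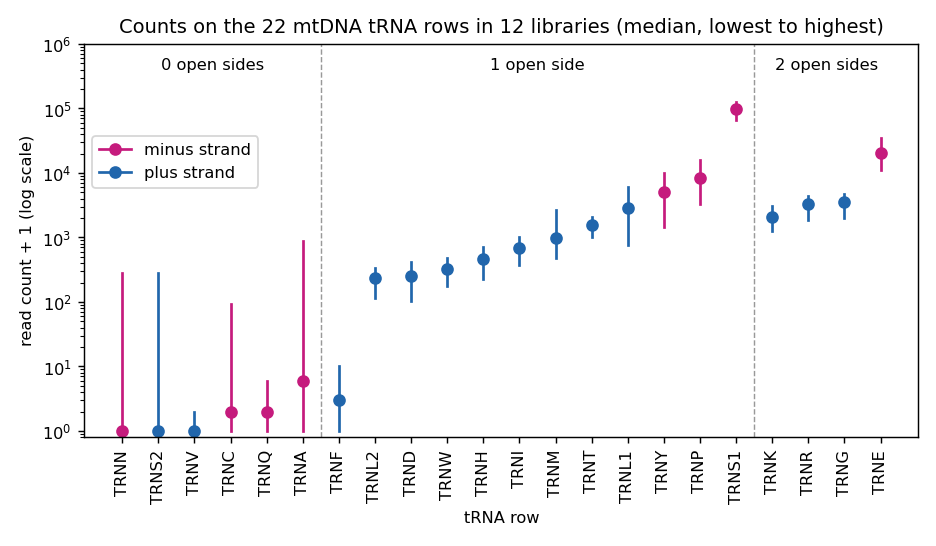
Read counts plus 1, on a log axis, of the 22 tRNA rows. Points are medians over 12 libraries and lines run from the lowest to the highest library, with rows grouped by their number of open sides and coloured by strand. The 6 rows with no open side had medians of at most 5 counts, and the 4 highest rows were all on the minus strand.

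Counts on tRNA rows rose under MAPKi. Of the 22 tRNA genes, 19 passed the filter of a mean scaled count of at least 10. In TC, 11 of these 19 were called higher than CC and 0 lower, against 33.2% higher and 34.7% lower of all genes tested. For the lower direction, edgeR called 0 at an unadjusted p under 0.05 as well, and DESeq2 called 0 at its adjusted p. Without CC replicate 3, and leaving out 4 rows with counts mostly in 1 or 2 libraries (TRNA, TRNC, TRNN and TRNS2), 10 of 15 were called higher and 0 lower (34.1% and 34.7% of all genes in that fit). Beyond 1.5-fold, 5 tRNA rows were called higher, against 16.1% of all genes, and 1 of them, TRNC, passed the filter through 1 TC library. No tRNA row was called lower beyond it, with 0 at an unadjusted glmTreat p under 0.05, against 19.3% of all genes.

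The tyrosine, proline and leucine (UUR) rows changed most among the rows with counts in every library. TRNY measured 44.9, 32.8 and 44.7 CPM in CC, and 195, 197 and 184 CPM in TC. It was 4.71-fold higher (log2 fold change 2.24 ± 0.11, edgeR adjusted p = 6.01e-09). TRNP rose from 86.5, 74.2 and 75.5 CPM to 403, 362 and 300.2 CPM (log2 fold change 2.17 ± 0.10, edgeR adjusted p = 3.16e-09). TRNL1 lies directly after RNR2 and rose from 19.1, 21.4 and 39.4 CPM to 98.1, 104 and 112 CPM (log2 fold change 1.98 ± 0.21, edgeR adjusted p = 3.48e-06, and 2.38 ± 0.08 without CC replicate 3). In none of these 3 rows did TC overlap CC.

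The glutamate row TRNE measured 337, 460 and 232 CPM in CC, and 719, 640 and 655 CPM in TC. Its log2 fold change was 0.97 (0.76 without CC replicate 3), and it was the fourth of these rows called beyond 1.5-fold. Smaller rises were called for TRND (0.82), TRNW (tryptophan, 0.75), TRNI (isoleucine, 0.73), TRNK (lysine, 0.46) and TRNS1 (0.42). TRNS1, the highest row, measured 1926, 2108 and 1822 CPM in CC, and 2875, 2563 and 2383 CPM in TC, without overlap. The methionine row TRNM was also called, at 1.72 ± 0.61 (edgeR adjusted p = 0.0238), with 2715 counts in the first TC library against 972 and 1257 in the others. Its call was lost without that library (1.02) and without the first (1.73) or second CC library (1.65). The rows TRNG, TRNH (histidine), TRNL2 (leucine, CUN), TRNR (arginine) and TRNT (threonine) were not called, with log2 fold changes from -0.16 to 0.06.

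Some rows with no open side passed the filter through 1 or 2 libraries, and their folds are not given. TRNA had 872 counts in the second PC library, 86.2% of its counts over all libraries, 54 in the third PC library and at most 36 elsewhere. TRNC had 92 counts in the first TC library and at most 11 elsewhere. TRNS2 had 282 counts in the third TC library and 0 in the other 11. TRNN had 281 counts in the first CC library and 86 in the third TC library. The calls of TRNC in TC and of TRNA in PC rest on these libraries. Leaving out these 4 sparse rows, 10 of 15 tRNA rows were called higher in TC and 7 of 15 in PC, and 4 of them beyond 1.5-fold in each. Since TRNA and TRNC passed the filter through the group where they were high, their calls are no support for a rise.

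In PC, some tRNA rows lay above CC and others below it. Of the 19 tested, 8 were called higher and 4 lower than CC, against 33.2% higher and 35.9% lower of all genes tested. Without CC replicate 3, and leaving out the 4 sparse rows, 8 of 15 were called higher and 4 lower in PC (34.3% and 35.8% of all genes in that fit), with TRNI gained (0.46, edgeR adjusted p = 0.0267). TRNY measured 206, 207 and 187 CPM, TRNP 297, 294 and 290.3 CPM, and TRNL1 115, 117 and 111 CPM. Their log2 fold changes against CC were 2.29, 1.90 and 2.10. TRND rose from 4.195, 5.08 and 3.37 CPM in CC to 8.06, 9.06 and 8.81 CPM in PC (log2 fold change 1.04 ± 0.14, edgeR adjusted p = 3.97e-05). Smaller rises were called for TRNE (0.61), TRNS1 (0.37) and TRNW (0.49). The call of TRNW was lost without the first CC (0.31), the first PC (0.45) or the second PC library (0.45). Beyond 1.5-fold, the calls in PC were RNR1, TRNY, TRNP, TRNL1 and TRND, with TRNA besides, against 17.2% of all genes. Of the lower rows 0 were called beyond it and 2 had an unadjusted glmTreat p under 0.05, against 19.9% of all genes.

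The 4 lower rows in PC are all on the plus strand, which holds 11 of the 15 rows with counts in every library. On the same strand TRNL1, TRND and TRNW were called higher in PC. TRNG measured 65.0, 100.3 and 100.0 CPM in CC, 90.02, 95.6 and 79.0 CPM in TC, and 52.7, 52.1 and 45.9 CPM in PC. Its level in PC was below every CC and TC library, with a log2 fold change of -0.82 ± 0.16 against CC (edgeR adjusted p = 0.000542). TRNL2 measured 5.13, 7.27 and 7.09 CPM in CC, and 3.82, 4.30 and 2.64 CPM in PC (log2 fold change -0.86 ± 0.21, edgeR adjusted p = 0.00257). TRNR measured 60.0, 93.1 and 93.7 CPM in CC, and 55.6, 60.4 and 43.7 CPM in PC, which overlapped CC (log2 fold change -0.63 ± 0.18, edgeR adjusted p = 0.00819). TRNT went from 42.1 ± 4.2 CPM in CC to 29.9 ± 2.5 CPM in PC (SD, n = 3), with a log2 fold change of -0.49. TRNG and TRNR flank ND3 and TRNL2 directly precedes ND5.

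**Figure D3:**
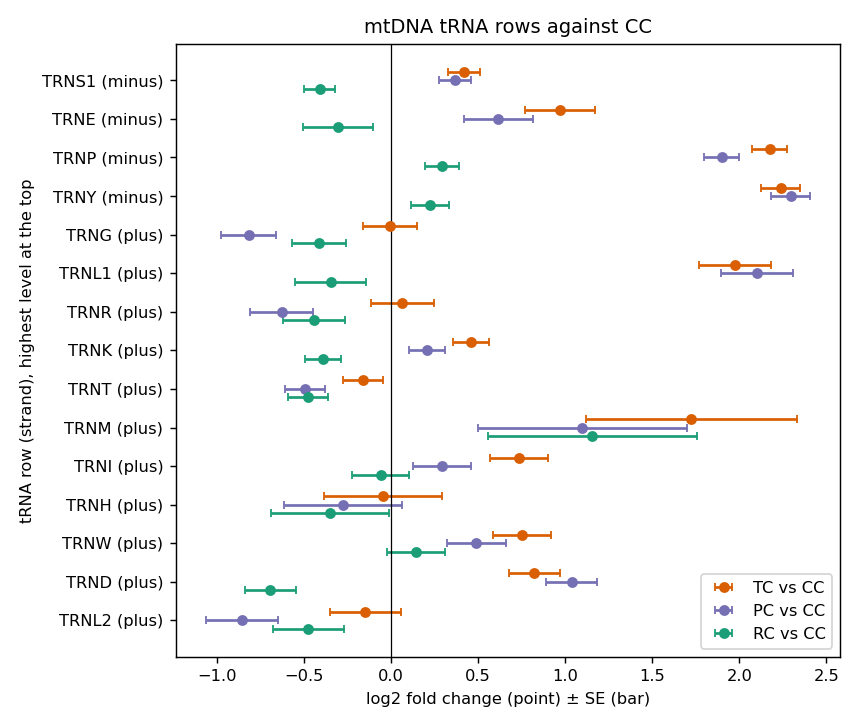
Log2 fold changes against CC (points) with SE (bars) of the 15 tRNA rows with counts in every library, ordered by level. TC, PC and RC share the 3 CC libraries. TRNP, TRNY and TRNL1 lay near 2 in both TC and PC, while TRNG, TRNH, TRNR, TRNT and TRNL2 lay below 0 in PC and RC. Of the latter, TRNH was not called in PC, and TRNT alone was called in RC. TRND, TRNE, TRNI, TRNK, TRNL1 and TRNS1 also lay below 0 in RC.

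Between TC and PC, 3 of the 19 tested tRNA rows were called, all lower in PC, a share near that of all genes. These were TRNG (log2 fold change -0.81 ± 0.16, edgeR adjusted p = 0.00279), TRNL2 (-0.71 ± 0.21, adjusted p = 0.0253) and TRNR (-0.69 ± 0.18, adjusted p = 0.0155), against 12.5% of all genes called lower. The number called lower depended on the fit and on single libraries: it was 7 with a replicate block, 7 with the 2 groups alone, 6 by DESeq2, 7 without the first CC library, 5 without the third TC library, and 1 without the second TC or the third PC library. The call of TRNL2 was lost without the first TC (-0.74), the second TC (-0.57) or the third PC library (-0.53), and that of TRNR without the second TC (-0.58) or the third PC library (-0.57). By edgeR 0 tRNA rows were called higher in PC than TC, with 1 at an unadjusted p under 0.05, and DESeq2 called 0 at its adjusted p, against 12.2% of all genes. TRNY, TRNP and TRNL1 had log2 fold changes of 0.06, -0.27 and 0.12 in this comparison, none called.

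From PC to RC, most called tRNA rows fell. Of the 19 tRNA rows, 8 were called lower and 1 higher in RC than PC, against 34.2% lower and 35.7% higher of all genes. TRNL1 fell by 2.45, TRNY fell by 2.07, TRND fell by 1.73 and TRNP fell by 1.61 on the log2 scale. TRNE, TRNS1 and TRNK were also lower, with log2 fold changes of -0.92, -0.78 and -0.60. The eighth was TRNA, whose counts lay mostly in 1 PC library. TRNW, called higher in PC, was not called in this comparison (-0.35 ± 0.17, edgeR adjusted p = 0.0797). The row that rose was TRNG (0.40 ± 0.16, edgeR adjusted p = 0.0366), and 6 libraries, left out singly, each ended this call, with values from 0.31 to 0.44.

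In RC, 4 of the 19 tested tRNA rows were called lower than CC and 1 higher, against 19.1% and 18.2% of all genes. The share called lower was thus near that of all genes. Without CC replicate 3, and leaving out the 4 sparse rows, 5 were lower and 0 higher (20.4% and 21.3% of all genes in that fit), with TRNE gained (-0.52, edgeR adjusted p = 0.0211). TRND measured 2.56, 2.51 and 2.74 CPM in RC, below every CC library (log2 fold change -0.69 ± 0.15, edgeR adjusted p = 0.00315). TRNS1 measured 1645, 1397 and 1363 CPM, also below every CC library (-0.41 ± 0.09, edgeR adjusted p = 0.00408). TRNT and TRNK were lower by log2 fold changes of -0.48 and -0.39, and the call of TRNK was lost without the first RC library (-0.34). TRNP was the row called higher, at 102, 95.8 and 91.5 CPM (0.29 ± 0.10, edgeR adjusted p = 0.0361). Its call was lost without any one of 5 libraries (0.25 to 0.30), namely CC replicates 2 and 3, the second PC and the first and second RC. Beyond 1.5-fold, glmTreat called 0 members higher and 0 lower in RC, with 0 and 1 at an unadjusted p under 0.05, against 1.35% higher and 2.52% lower of all genes.

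Summed over all tRNA rows, CC libraries held 0.274 ± 0.024% of their counts, TC libraries 0.425 ± 0.045%, PC libraries 0.391 ± 0.023% and RC libraries 0.220 ± 0.021% (SD, n = 3; exact permutation p = 0.000325, adjusted 0.000649). The ratio of tRNA-row to rRNA counts was 0.155 ± 0.035 for CC, 0.145 ± 0.004 for TC, 0.164 ± 0.015 for PC and 0.170 ± 0.016 for RC, and its difference over the groups did not pass the test (exact permutation p = 0.481, adjusted 0.481). The minus-strand rows held 85.0 to 91.0% of the tRNA counts in each library (exact permutation p = 0.107, adjusted 0.129). With permutation within replicate number, a replicate block, the exact p was 0.0365, and over single libraries left out it ran from 0.0216 to 0.228, with 0.0216 and 0.0227 without the first and the third CC library.

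Copies of mitochondrial DNA in the nuclear genome can take or lose reads. Of the 22 tRNA windows with 40 bases on each side, 21 matched a nuclear site over at least 95% of their length, at a median best identity of 97.97%, and 1 window, that of TRNN, had an identical nuclear copy. The best nuclear match of RNR1 was 95.7% identical and that of RNR2 88.6%. The 11 rows for nuclear copies of RNR2 (MTRNR2L genes) held 8 to 36 counts in all per library, so few reads were counted there. How reads with several equal alignments were handled is not given in the sources used here.

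The nuclear genes of mitochondrial gene expression were more often called lower than higher in TC and PC. Of 78 tested genes for transcription, replication, RNA processing, stability and modification, and their regulators, 45 (57.7%) were called lower and 8 (10.3%) higher in TC than CC, against 34.7% lower and 33.2% higher of all genes, with a median log2 fold change of -0.42 against -0.02 for all genes. Without CC replicate 3 the counts were 45 lower and 13 higher (median -0.32). In PC 54 (69.2%) were lower and 9 (11.5%) higher (median -0.47), against 35.9% and 33.2% of all genes. From PC to RC 52 (66.7%) were higher and 8 (10.3%) lower (median 0.53), against 35.7% and 34.2%. In RC against CC 15 (19.2%) were higher and 11 (14.1%) lower (median 0.08), near the 18.2% and 19.1% of all genes. The lists were written by hand.

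Of the 10 transcription genes tested, 5 were lower and 3 higher in TC and in PC (median -0.22 and -0.27), against 34.7% lower and 33.2% higher of all genes in TC. The higher ones were MTERF1, MTERF2 (0.52 in TC) and MTRES1 (0.52 in TC), of which the latter pair were named after their values were seen. POLRMT, the mitochondrial RNA polymerase, measured 85.6, 85.3 and 95.1 CPM in CC, and 33.4, 30.5 and 36.2 CPM in TC (log2 fold change -1.41 ± 0.08, edgeR adjusted p = 1.24e-08). In PC it measured 30.3, 29.8 and 29.6 CPM, and in RC 93.2, 86.0 and 80.7 CPM, within or just below the CC range. TFAM, which packages mitochondrial DNA and bends promoters for initiation, and TFB2M, which opens them, had log2 fold changes of -0.78 and -0.91 in TC, both called lower. MTERF1, which binds mitochondrial DNA just past the end of RNR2, rose from 16.3 ± 2.1 CPM in CC to 37.6 ± 0.9 CPM in TC and 48.8 ± 5.8 CPM in PC (SD, n = 3). Its log2 fold change was 1.21 in TC and 1.58 in PC (edgeR adjusted p = 5.38e-07 and 4.94e-08), and -1.37 from PC to RC.

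Of the 14 replication genes tested, 8 were lower and 0 higher in TC, against 34.7% lower and 33.2% higher of all genes. In PC 11 were lower and 1 higher, against 35.9% and 33.2% of all genes. TWNK, the helicase, and POLG, the polymerase, had log2 fold changes of -0.76 and -0.43 in TC. DNA2, TOP1MT and LIG3, which trim, unwind and join DNA in mitochondria, had -1.88, -1.36 and -0.85. Of the 11 processing genes 7 were lower and 1 higher in TC, against the same 34.7% and 33.2% of all genes. ELAC2, which cuts the 3′ end of tRNAs, had -0.70, PTCD2 -0.72, and TBRG4, which acts in processing and stability of mitochondrial RNA, -1.37.

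Of the 9 RNA stability genes, 6 were lower and 0 higher in TC, against 34.7% lower and 33.2% higher of all genes. LRPPRC, which stabilises mitochondrial mRNAs, fell by 1.07 in TC and fell by 1.63 in PC, and was lower in PC than TC by a log2 fold change of -0.56 (edgeR adjusted p = 0.0018). PNPT1, the RNA-degrading phosphorylase, had -1.34 and GRSF1, a protein of mitochondrial RNA granules, -1.01 in TC. Of the 16 tRNA modification genes 11 were lower and 1 higher in TC, against the same shares of all genes. TRIT1, GTPBP3 and MTO1, enzymes for tRNA bases at and beside the anticodon, had -1.01, -0.94 and -0.80 in TC. Of the 8 rRNA modification genes 4 (50.0%) were lower and 1 (12.5%) higher in TC, again against 34.7% and 33.2% of all genes, and the list is short. TFB1M, which methylates the 12S rRNA, measured 24.2, 27.8 and 21.9 CPM in CC, and 4.198, 5.19 and 3.51 CPM in TC (log2 fold change -2.52 ± 0.14, edgeR adjusted p = 1.65e-08). RPUSD4 and MRM3, which modify the 16S rRNA, had -0.76 and -0.28.

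Of the 10 regulators of mitochondrial biogenesis, 4 were lower and 2 higher in TC, against 34.7% lower and 33.2% higher of all genes. The 2 higher were GABPA (0.26) and TFEB (0.49), named after their values were seen. MYC, a transcription factor of growth genes, measured 55.7, 51.6 and 70.0 CPM in CC, and 4.33, 3.68 and 5.43 CPM in TC (log2 fold change -3.71 ± 0.15, edgeR adjusted p = 8.81e-10). The coactivator PPARGC1B had -1.81 and PPRC1 -0.56. The coactivator PPARGC1A was not called in TC (-0.46 ± 0.22, edgeR adjusted p = 0.0842) and was called lower in PC (-1.95 ± 0.23, edgeR adjusted p = 9.85e-06).

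**Figure D4:**
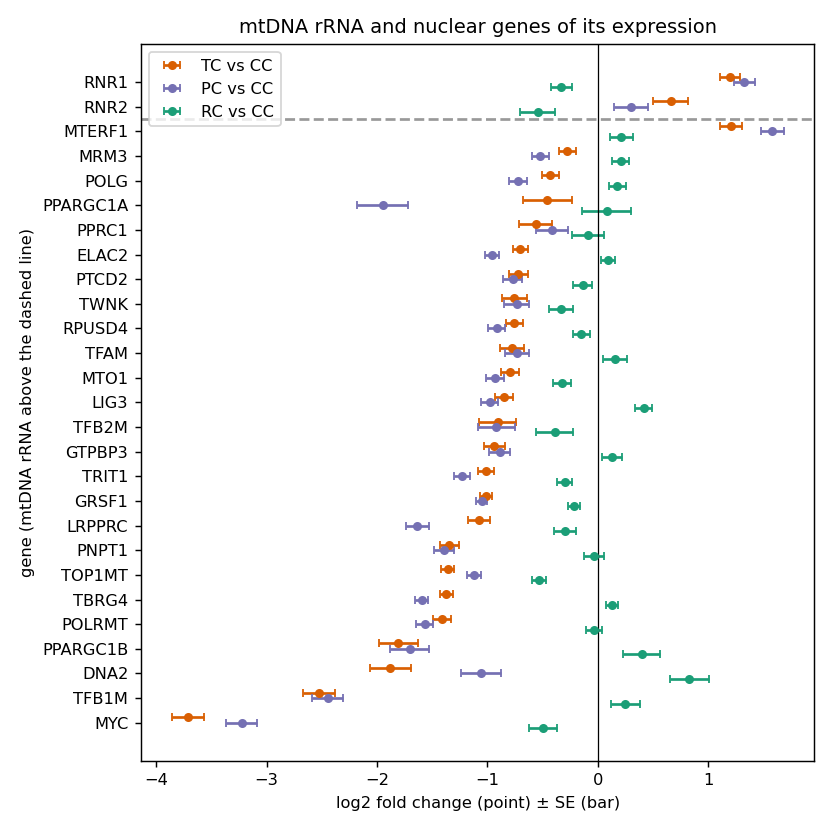
Log2 fold changes against CC (points) with SE (bars) of the 2 mitochondrial rRNAs, above the dashed line, and of 25 named nuclear genes for mitochondrial gene expression, ordered by the value in TC. TC, PC and RC share the 3 CC libraries. RNR1, RNR2 and MTERF1 lay above 0 in TC and PC, and the other 24 genes lay below 0 in both. Most nuclear genes shown were picked by the size of their change in TC. Of all 78 tested, 45 were called lower and 8 higher in TC.

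Nuclear genes for protein partners of the mitochondrial gene products were counted too. Of 75 tested nuclear genes for respiratory chain subunits, 30 were lower, a share near the 34.7% of all genes, and 7 (9.33%) higher in TC, against 33.2% of all genes, and 49 (65.3%) were lower and 6 higher in PC, against 35.9% and 33.2% (median log2 fold change -0.16 and -0.43). Of 74 tested mitochondrial ribosomal protein genes, 45 (60.8%) were lower and 14 (18.9%) higher in TC, and 42 (56.8%) lower and 8 higher in PC (median -0.28 and -0.37). The ratio of the 2 rRNAs to the summed counts of the respiratory chain genes was 1.66, 1.34 and 1.13 for CC, 2.59, 2.52 and 2.69 for TC, 2.93, 2.89 and 2.48 for PC, and 1.07, 1.04 and 1.08 for RC. TC and PC did not overlap CC or RC (exact permutation p = 0.00026, adjusted 0.000649). The denominator changed too. The respiratory chain genes took 1.17 to 1.51% of counts in CC and 1.015 to 1.26% in TC. In PC they took 0.824 to 0.885%, below every CC library, so the ratio in PC is not a measure of rRNA alone. NEAT1, a nuclear RNA, had 9116 to 16739 counts in CC, 9722 to 14308 in RC and 2537 to 3774 in TC and PC. RN7SK, also nuclear, went the other way, with 13 to 18 counts in CC, 16 to 36 in RC and 20 to 62 in TC and PC. MALAT1 had 8 to 84 counts. The part of nuclear RNA in these values was not tested.

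**Figure D5:**
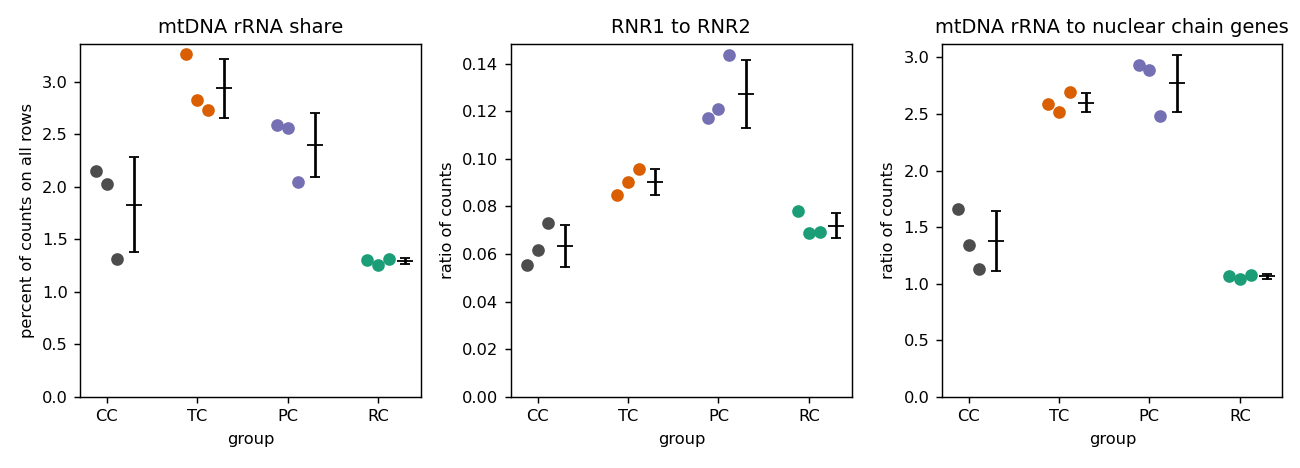
Share of counts on the 2 mitochondrial rRNA rows (percent), ratio of RNR1 to RNR2 counts, and ratio of mitochondrial rRNA to nuclear respiratory chain counts, in each library by group, on linear axes from 0. Points are libraries and the bar beside them is the mean ± SD of 3. The ratio of RNR1 to RNR2 was highest in PC, at 0.117 to 0.144, while the ratio to nuclear genes was 2.48 to 2.93 in TC and PC.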

How the data were processed

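Raw, unnormalized read counts of every gene in 12 libraries were deposited. The authors trimmed 150-base read pairs with fastp 0.20.1, aligned them to GRCh38.p13 with HISAT2 2.2.1 and counted them on exons with HTSeq 0.13.5 and the NCBI annotation. The members and lists were chosen with earlier results of these data known.

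Genes with a mean scaled count of at least 10 were tested (15916). With edgeR 4.0.16 (R 4.3.3), 1 quasi-likelihood model with TMM normalization covered the 12 libraries and left 8 residual degrees of freedom. A gene was called at a two-sided, Benjamini-Hochberg adjusted p under 0.05, and beyond 1.5-fold by glmTreat. Levels are normalized CPM. Shares and ratios were compared by an exact permutation test on log2 values. Of these, 4 (RNR1 to RNR2, tRNA to rRNA, rRNA to respiratory chain, minus-strand share) and the counts beyond 1.5-fold, those leaving out 4 sparse tRNA rows and those without CC replicate 3 besides were added after seeing the data. Tests planned for the 13 mRNA genes were not run, since no row of the count table matched their names. No statement in the sources says that the replicate libraries came from separate cultures, so p-values measure the spread between these libraries, which may be technical. No library duplicated another. Nuclear copies were searched with blastn 2.17.0, and positions are from GENCODE 44. The fit was tested on simulated data.

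Members were all accounted for, and tRNA rows with a mean of at least 10 counts were named. Of each nuclear list, the text names up to 3 called genes with the largest change in TC (mean CPM of at least 1), plus POLRMT, TFAM, TWNK, POLG, LRPPRC and PPARGC1A. Alternatives were the scaling, the filter, DESeq2 1.42.0, a replicate block, fits of 2 groups and leaving out each library.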

Additional observations from a re-analysis of the deposited data

Results flagged for a closer look

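By the direct test of PC against TC, the change from CC differed between these time points for 3 of 19 tRNA rows. All 3 were lower in PC, a share near the 12.5% of all genes called lower. TRNG had a log2 fold change of -0.81 in PC against TC (edgeR adjusted p = 0.00279). TRNL2 had -0.71 (edgeR adjusted p = 0.0253). TRNR had -0.69 (edgeR adjusted p = 0.0155). All 3 PC libraries lay below all 3 TC libraries in each of these rows. The same held in 9 of the 19 tested tRNA rows, so it was not particular to these 3. Over single libraries left out, the number of tRNA rows called lower ran from 1 to 7. The calls of TRNL2 and TRNR were each lost in some of these fits.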

How the results depend on the processing

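Of 85 fold changes of single rRNA and tRNA rows, 57 kept their direction where called and their side of the threshold under all alternatives. Reversals were TRNH in RC against PC without the second PC library (0.56, range over single libraries left out -0.33 to 0.56) and TRNM in the same comparison without the first RC library (-1.23, range -1.23 to 0.44). Same-number correlations were weak, from -0.04 to 0.16, with 2 of 18 over 0.1, yet 9 of 12 libraries correlated best with their own number. These values do not settle whether the replicate numbers pair the libraries. With the replicate block, 2 rRNA rows were called higher in PC than CC, 7 tRNA rows lower in PC than TC, and the minus-strand share gave p = 0.0365 by exact permutation. The block moved no other count of calls by over 1.5 times.

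DESeq2 called 2 rRNA rows higher in PC than CC and 6 tRNA rows lower in PC than TC. Fits of the 2 groups alone called 1 rRNA row lower in RC than CC, 1 rRNA and 7 tRNA rows lower in PC than TC, and 7 nuclear genes of mitochondrial gene expression higher in RC than CC. The filter on a summed count of 2 called 1 tRNA row higher in PC than TC. Against a fold of 1.5, glmTreat called 1 rRNA and 5 tRNA rows higher in TC than CC, 5 tRNA rows higher and 0 lower in PC, and 0 rows of either class in RC; it asks for a larger change by construction. The cause of the other differences was not tested.

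Leaving out single libraries, the rRNA rows called ranged from 1 to 2 higher in PC than CC, 0 to 2 lower in RC than CC and 0 to 1 lower in PC than TC. The tRNA rows called ranged from 0 to 1 higher and 3 to 7 lower in RC than CC, 0 to 1 higher and 1 to 7 lower in PC than TC, and 0 to 1 higher in RC than PC. The nuclear genes ranged from 7 to 13 higher in TC than CC (13 without the third CC library), 8 to 18 higher in RC than CC, and 3 to 8 higher and 6 to 16 lower in PC than TC. The minus-strand share ranged from p = 0.0216 to 0.228 by exact permutation. The mRNA sum without overlapping genes was not run. Rows with few counts, at 0 to 5 by the median, give no usable precision, and 3 libraries per group limit every fold.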
